A study of Mus musculus with 6 samples.

Results

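The genes described are those of the long-chain acyl-CoA synthetase family, Acsl1, Acsl3, Acsl4, Acsl5 and Acsl6, together with Acsbg1, the bubblegum acyl-CoA synthetase. They were chosen by symbol, and 8 of 55681 probes on the array belonged to these 6 genes. Since the array files hold accessions and no symbols, probes were assigned through their RefSeq accessions. Mouse Acsl1 lies on chromosome 8, Acsl3 on chromosome 1, Acsl4 on chromosome X, Acsl5 on chromosome 19, Acsl6 on chromosome 11 and Acsbg1 on chromosome 9. Acsl1 and Acsl6 had 2 probes each and the others 1. Each of the 6 genes entered the test, among 24209 features in all.

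Adult hippocampal precursor cells, the dividing cells of the mouse dentate gyrus, were isolated from male C57BL6/JRj mice aged 8 weeks. The growth medium of the adherent cultures held EGF and bFGF, mitogens, at 20 ng/ml for each. Cultures grown for 2 days received human LDL or, as the control, saline, and RNA was taken after 48 h. The LDL dose was 100 ug/ml per the treatment protocol, while the sample descriptions give another unit of volume, so the dose is not certain. There were 3 LDL and 3 saline arrays, from independent experiments on different passages, hybridized on 1 slide, and their number limits the precision. LDL is a whole particle that carries cholesterol esters, triglycerides and phospholipids.

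Acyl-CoA synthetases join a free fatty acid to coenzyme A, the step that lets a cell use it. The acyl-CoA formed can enter triglycerides and phospholipids, esterify cholesterol, be lengthened or desaturated, or be burned in mitochondria. The isoforms differ in the membranes they sit on and in the fatty acids they prefer. Fatty acids freed from an LDL particle in the lysosome also need this activation.

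None of the 6 genes passed an adjusted p of 0.05 in limma. Acsl3 and Acsl4 had lower means after LDL, Acsl5, Acsl6 and Acsbg1 slightly higher ones, and Acsl1 nearly the same mean in both groups. Over all features 0.132% passed, 4 of them higher (0.0165%) and 28 lower (0.116%), so a count of 0 among 6 genes is near the background. Before adjustment, 2 of the 6 genes had p under 0.05, Acsl3 and Acsl4, against 7.66% of all features. The median log2 fold change was 0.10 over the 6 genes and -0.03 over all features. A positive value was found for 42.7% of all features, the share to set beside the counts of signs below. Values below are log2 signals relative to the 75th percentile of each array. Different probes bind with different strength, so a value is compared between arrays and never between probes.

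**Figure D1:**
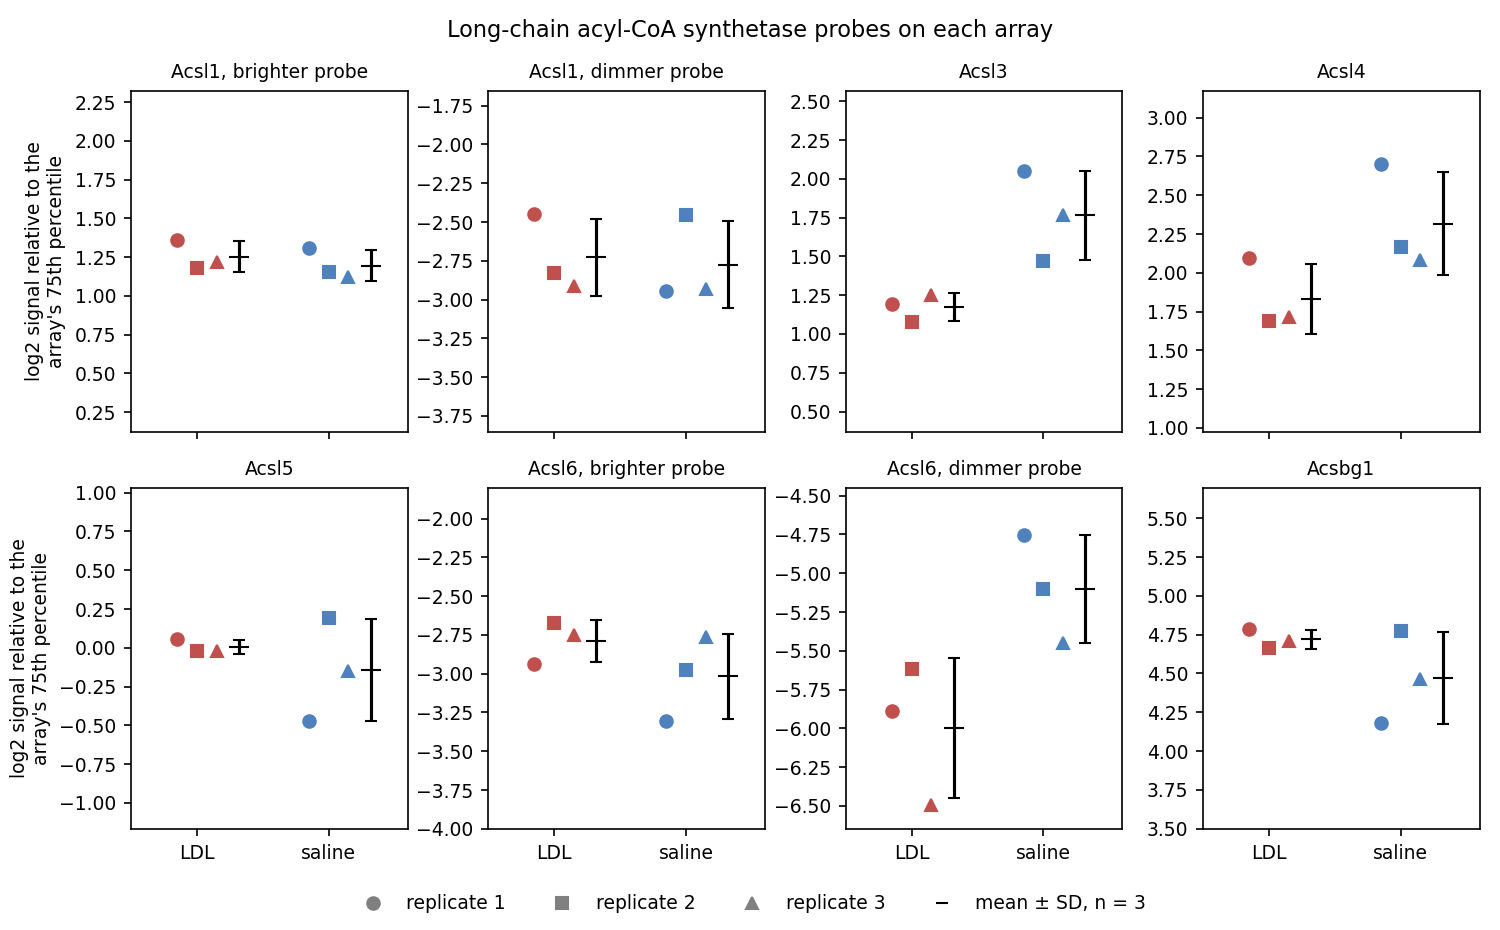
Log2 signal relative to the array's 75th percentile for the 8 probes, with 3 LDL arrays (red) left of 3 saline arrays (blue), symbols for replicates and bars for mean ± SD. Each panel spans the same log2 range. The groups stand apart for Acsl3 and for the dimmer Acsl6 probe, which is near background, and overlap in the other panels.

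Acsl3 sits on the endoplasmic reticulum and on forming lipid droplets, and supplies acyl-CoA for droplet lipids and phosphatidylcholine. Its values were 1.20, 1.08 and 1.25 on LDL arrays 1 to 3, against 2.05, 1.47 and 1.77 on saline arrays 1 to 3. Every LDL array lay below every saline array, and the LDL arrays lay close together. On the linear scale the processed signal was 2197, 1776 and 2289 with LDL, against 3147, 2025 and 3210 with saline. The mean was 1.17 ± 0.09 with LDL and 1.76 ± 0.29 with saline (SD, n = 3 each), a log2 fold change of -0.59 (SE 0.16, 95% interval -0.96 to -0.21). This is a change in signal of -33.5%, and it did not pass over all features (limma, unadjusted p = 0.00761, adjusted p = 0.473). Acsl3 ranked 388 by p, and it was the only 1 of the 6 genes whose groups stood apart, which 14.8% of all features did, 9.12% in the lower direction. The interval leaves out 0 and also a fall by a log2 unit of 1, but it is not adjusted for the number of features.

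Acsl4 prefers arachidonic acid and other polyunsaturated fatty acids and feeds them into phospholipids. It is best known from mouse and human cells as a gene that sensitises membranes to ferroptosis, a death by lipid peroxidation. Its values were 2.09, 1.69 and 1.72 on LDL arrays 1 to 3, against 2.70, 2.17 and 2.09 on saline arrays 1 to 3. The groups met, because LDL replicate 1 was just above saline replicate 3. In both groups replicate 1 was the highest array. The mean was 1.83 ± 0.23 with LDL and 2.32 ± 0.33 with saline (SD, n = 3 each). Acsl4 had a log2 fold change of -0.48 (SE 0.20, 95% interval -0.95 to -0.02), a change in signal of -28.4% (limma, unadjusted p = 0.0443, adjusted p = 0.642).

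Leaving out saline replicate 1, the highest saline array for both genes, reduced the differences most. The log2 fold change was then -0.45 for Acsl3 and -0.29 for Acsl4, so for Acsl4 that array supplied much of the difference. Without saline replicate 2 that of Acsl3 was -0.73, and without LDL replicate 1 that of Acsl4 was -0.61. Both stayed negative in all 19 settings tried, with adjusted p between 0.24 and 0.9995 for Acsl3 and between 0.315 and 1 for Acsl4. Settings that changed only the background filter, the use of several probes, the variance model or the blocks could not move these fold changes. Their sign in those settings is therefore no separate evidence. Within slide row 1, which held 2 arrays of each group, the difference was -0.62 for Acsl3 and -0.54 for Acsl4. In slide row 2, with 1 array of each, it was -0.52 and -0.37.

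The promoters of Acsl3 and Acsl4 are shown because these were the genes with negative log2 fold changes. Each window runs from 250 bases before to 50 after an annotated transcript start, from RefSeq on GRCm38.p6. Acsl3 is at chr1:78657575-78657874 on the plus strand and Acsl4 at chrX:142390486-142390785 on the minus strand. Capitals mark matches on either strand to GGGCGG, the GC box bound by Sp1, and to CCAAT, the box bound by NF-Y, factors that often act beside the sterol-controlled factor SREBP.
Acsl3: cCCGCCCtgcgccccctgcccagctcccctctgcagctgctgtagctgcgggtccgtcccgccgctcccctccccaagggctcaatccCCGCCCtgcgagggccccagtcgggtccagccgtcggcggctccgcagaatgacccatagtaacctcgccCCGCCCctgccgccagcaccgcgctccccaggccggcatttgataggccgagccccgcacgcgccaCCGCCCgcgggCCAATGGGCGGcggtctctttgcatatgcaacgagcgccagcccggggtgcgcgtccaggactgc
Acsl4: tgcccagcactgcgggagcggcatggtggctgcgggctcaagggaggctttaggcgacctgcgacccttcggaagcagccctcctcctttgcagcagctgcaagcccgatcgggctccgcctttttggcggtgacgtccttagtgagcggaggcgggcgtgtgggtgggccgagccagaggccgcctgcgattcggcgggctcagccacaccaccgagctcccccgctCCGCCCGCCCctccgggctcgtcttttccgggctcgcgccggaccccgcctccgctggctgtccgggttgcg

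The Acsl3 window held 5 GC boxes and 1 CCAAT box, which adjoins the last GC box, and the Acsl4 window held 2 overlapping GC boxes and 0 CCAAT boxes. The first Acsl1 window held 7 GC boxes, and the second Acsl1 window and the Acsbg1 window held 2 CCAAT boxes each. The Acsl5 window held 1 CCAAT box, and each of the 3 Acsl6 windows held a GC box. These boxes were thus not particular to Acsl3 and Acsl4, and a link to the signals was not tested. Of 32851 promoter windows of the same length, 35.7% held a GC box and 37.4% a CCAAT box, so both motifs are common. The sterol regulatory element TCACNCCAC, present in 1.24% of windows, matched in 1 of the 9 windows of the 6 genes, once on the minus strand of the second Acsl1 window. The E-box CACGTG, present in 7.15%, matched in 0 of the 9. The nuclear receptor half-site AGGTCA, in 16.3% of windows, matched only in 1 of the 3 Acsl6 windows, at 2 places. A match is a description of letters, and a missing one says only that those letters are not in these windows.

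Acsl1 is the main synthetase of liver, heart and fat, where it serves triglyceride synthesis and oxidation and is a target of PPAR receptors. The array held 2 probes for it. The brighter probe had 1.36, 1.18 and 1.22 on LDL arrays 1 to 3, against 1.31, 1.15 and 1.12 on saline arrays 1 to 3. The groups overlapped and both were tight. The mean was 1.25 ± 0.10 with LDL and 1.19 ± 0.10 with saline (SD, n = 3 each), with a log2 fold change of 0.06 (SE 0.11, 95% interval -0.19 to 0.31, limma adjusted p = 0.935). The dimmer probe gave a log2 fold change of 0.05, with -2.73 ± 0.25 for LDL and -2.78 ± 0.28 for saline, in the fit of single probes (SE 0.19, limma adjusted p = 0.973). The interval of the brighter probe limits a difference of Acsl1 in either direction to at most 0.31 on the log2 scale, before any adjustment.

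Acsl5 is found on mitochondria and the endoplasmic reticulum and is abundant in the intestine. Its values were 0.06, -0.02 and -0.02 on LDL arrays 1 to 3, against -0.47, 0.19 and -0.15 on saline arrays 1 to 3. The 3 LDL arrays lay inside the range of the saline arrays. The mean was 0.01 ± 0.05 with LDL and -0.14 ± 0.33 with saline (SD, n = 3 each), with a log2 fold change of 0.15 (SE 0.17, 95% interval -0.25 to 0.55, limma adjusted p = 0.887). This value depended on single saline arrays, and was -0.02 without saline replicate 1 and 0.32 without saline replicate 2.

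Acsl6 is a brain synthetase that enriches membranes in docosahexaenoic acid. Its brighter probe was dim but well above background on every array, with -2.94, -2.68 and -2.75 on LDL arrays 1 to 3, against -3.31, -2.98 and -2.76 on saline arrays 1 to 3. The groups overlapped, since LDL replicate 1 was below saline replicate 3. The mean was -2.79 ± 0.14 with LDL and -3.02 ± 0.27 with saline (SD, n = 3 each), with a log2 fold change of 0.23 (SE 0.16, 95% interval -0.15 to 0.61, limma adjusted p = 0.809). The value was 0.08 without saline replicate 1 and 0.35 without saline replicate 3, and within slide row 2 it was 0.01.

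The second Acsl6 probe was well above background on 0 of 3 LDL arrays and 1 of 3 saline arrays, so it was not tested. Its measured means were -6.00 with LDL and -5.10 with saline. Most of these values lie below the limit of measurement, so no fold or direction of Acsl6 is read from this probe. Its measured difference of -0.90 was -0.81 with quantile normalization and -0.16 with normexp background correction and quantile normalization together. Both probes carry the accession of the same Acsl6 transcript, and no probe sequence was used here to place them.

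Acsbg1 activates long and very long fatty acids and is known from brain, where astrocytes express it, and from adrenal gland and testis. Its values were 4.79, 4.67 and 4.71 on LDL arrays 1 to 3, against 4.18, 4.77 and 4.46 on saline arrays 1 to 3. The LDL arrays were tight, and saline replicate 2 lay among them while the other 2 saline arrays were lower. The processed signal was 26495, 21410 and 25097 with LDL, against 13777, 19935 and 20791 with saline, with the saturation flag set on 0 arrays. The mean was 4.72 ± 0.06 with LDL and 4.47 ± 0.30 with saline (SD, n = 3 each), with a log2 fold change of 0.25 (SE 0.16, 95% interval -0.13 to 0.62, limma adjusted p = 0.783). It was 0.10 without saline replicate 1, 0.40 without saline replicate 2 and between 0.21 and 0.28 with any other array left out.

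**Figure D2:**
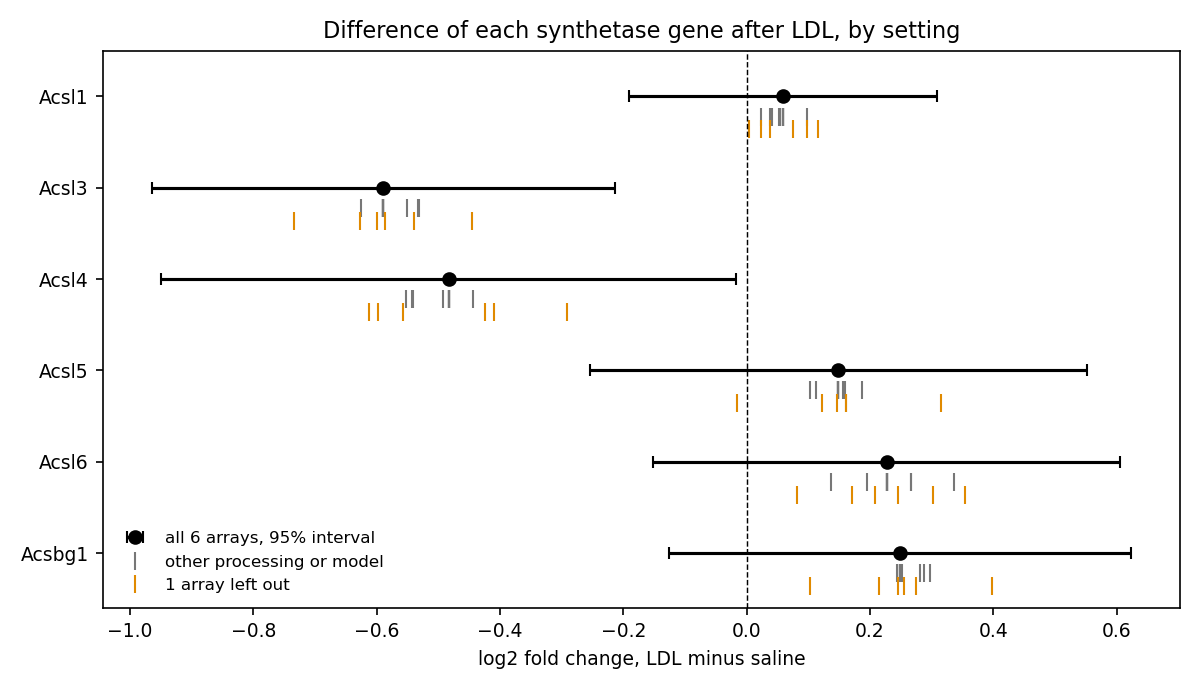
Log2 fold change of each gene, LDL minus saline, with the 95% interval of the limma fit on all 6 arrays (black), under other processing or models (grey ticks) and with 1 array left out (orange ticks). Acsl3 and Acsl4 stay below 0 throughout, Acsl1, Acsl6 and Acsbg1 above 0, and Acsl5 is at -0.02 in 1 setting. Grey ticks level with the black point include settings that could not move the fold change.

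Saline arrays spread more widely than LDL arrays for each of the 6 genes, as for 75.6% of all features. Saline replicate 1 was the highest saline array for Acsl3, Acsl4 and the brighter Acsl1 probe, and the lowest for Acsl5, Acsbg1 and the brighter Acsl6 probe. Differences between genes on the same array do not depend on how arrays are scaled. Acsl5 minus Acsbg1 was -4.73, -4.69 and -4.73 on LDL arrays 1 to 3, against -4.65, -4.58 and -4.61 on saline arrays 1 to 3. This difference had an SD of 0.02 with LDL and 0.04 with saline, although Acsl5 alone had an SD of 0.33 with saline. The 2 genes kept almost the same ratio on all 6 arrays, with a shift of -0.10 between the groups, which did not overlap.

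Acsl3 minus Acsbg1 was -3.59, -3.59 and -3.45 on LDL arrays 1 to 3, against -2.13, -3.30 and -2.70 on saline arrays 1 to 3. The mean difference was -3.55 ± 0.08 with LDL and -2.71 ± 0.58 with saline (SD, n = 3 each). LDL arrays were lower throughout, so Acsl3 was lower relative to Acsbg1 under any scaling that shifts a whole array. The pairs were not computed with quantile normalization. Acsl3 minus Acsl4 averaged -0.66 ± 0.22 with LDL and -0.55 ± 0.21 with saline (SD, n = 3 each), and the groups overlapped. Of the 15 pairs of genes, 7 had groups that did not overlap. Acsl3 or Acsl4 was in 6 of the 7, but also in most of the 15. The share among pairs of other features was not computed, so these counts are not read as a trait of the family. These pairs share genes, and no test was made on them.

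**Figure D3:**
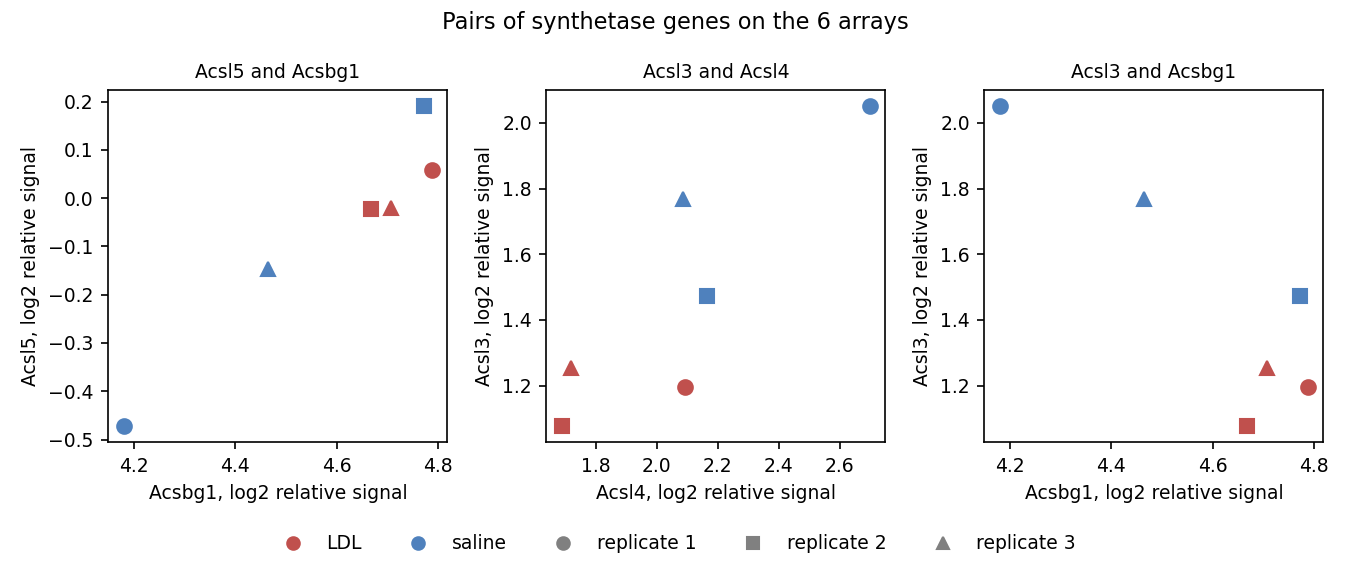
Log2 relative signal of 3 pairs of genes on the 6 arrays, red for LDL and blue for saline, with symbols for replicates. Acsl5 and Acsbg1 lie along 1 line, and saline replicate 1 is high for Acsl3 and low for Acsbg1. Acsl3 is lower on every LDL array than on any saline array, while the groups overlap for Acsl4.

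Among 14900 named genes, those whose 6 values were most like a synthetase gene correlated with it at Pearson r of 0.986 or more. With 6 arrays from 2 groups such values are common, and from 26 genes for Acsl6 to 424 for Acsl5 had r over 0.95. For Acsl3 they were 1700013G24Rik (r = 0.993), Sema4a (r = 0.993) and Dner (r = 0.988). For Acsl4 they were Lrrtm1 (r = 0.997), Hace1 (r = 0.997) and Atg7 (r = 0.992). Acsl1 was most like Fhod3, Ubl3 and Smim3, Acsl5 like Poll, Vps37c and Ist1, Acsl6 like Gm2016, Morn1 and Metap2, and Acsbg1 like Serpinb6c, Ankrd13a and Tmbim4.

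The other acyl-CoA synthetases, which act on chains from short to very long, gave a similar picture. Of 19 on the list 13 were tested, 0 passed, and 5 had positive and 8 negative values, with a median of -0.10. The lowest was Aacs, the cytosolic enzyme that activates acetoacetate for lipid synthesis, with 0.79 ± 0.11 with LDL and 1.37 ± 0.04 with saline (SD, n = 3 each). The log2 fold change of Aacs was -0.58 (SE 0.10, limma adjusted p = 0.191), about the size of that of Acsl3 with less spread. The acetate-activating Acss1 had -0.56 and Acss2 -0.35, and Acsf3, a malonyl-CoA synthetase of mitochondria, had 0.17 (adjusted p = 0.441, 0.641 and 0.759 in limma). Acsbg2, the other bubblegum gene, was dim, with -3.89 ± 0.08 with LDL and -3.62 ± 0.98 with saline (SD, n = 3 each), and its 3 saline values were too spread for its -0.27 to be read (limma adjusted p = 0.925).

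Genes around the use of the acyl-CoA product did not pass either. Of 22 tested genes of glycerolipid synthesis, 0 passed, 14 were positive and 8 negative, and the median was 0.02. Among the 22 are Lpin1, Lpin2 and Lpin3, phosphatidate phosphatases that take no acyl-CoA. The acyltransferases Agpat2, Agpat5 and Dgat2 had log2 fold changes of 0.41, 0.30 and 0.28, and the phosphatidate phosphatase Lpin3 had 0.89 (limma adjusted p = 0.448, 0.583, 0.601 and 0.629). Of 22 tested genes of fatty acid oxidation 0 passed, 17 were positive and 5 negative, and the median was 0.16. Cpt1a, which admits long-chain acyl groups to mitochondria, had 2.31 ± 0.05 with LDL and 1.26 ± 0.39 with saline, a log2 fold change of 1.05 (limma adjusted p = 0.226). The enzymes Acadl, Acaa2 and Acadvl of the oxidation spiral had 0.59, 0.67 and 0.33 (limma adjusted p = 0.241, 0.483 and 0.515). Of 17 tested genes of acyl-CoA hydrolysis and binding 0 passed, 13 were positive and 4 negative, and the median was 0.09. Dbi, the main acyl-CoA binding protein, had -0.37, the thioesterases Acot2 and Acot9 had 0.46 and 0.36, and the fatty acid binding protein Fabp3 had 0.32 (limma adjusted p = 0.484, 0.558, 0.627 and 0.582).

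Some genes that make or modify fatty acids and sterols passed. Of 18 tested genes of fatty acid synthesis and modification 2 fell and 0 rose, with 16 negative values and a median of -0.37. Elovl6, which lengthens palmitate, fell by 1.19 on the log2 scale (limma adjusted p = 0.0143), and the desaturase Scd1 fell by 1.53 (limma adjusted p = 0.0314). Fasn, the fatty acid synthase, had -0.86, and Acly, which makes cytosolic acetyl-CoA, had -0.52 (limma adjusted p = 0.0695 and 0.334). Of 24 sterol synthesis and SREBP2 target genes 14 fell and 0 rose, all 24 were negative and the median was -1.38. The 14 fell by 0.96 to 2.15 on the log2 scale, and Fdps, Tm7sf2, Hmgcs1, Cyp51, Idi1, Insig1, Msmo1, Lss, Stard4, Mvd, Sc5d and Mvk were among them. Without LDL replicate 2, LDL replicate 3 or saline replicate 3 none of these list genes passed, nor any other feature, and without saline replicate 2 only 2 of the sterol genes did. With 1 array left out, Elovl6 passed only without saline replicate 1 and Scd1 only without LDL replicate 1 (limma adjusted p = 0.0449 and 0.0388). Neither passed with slide row as a block (limma adjusted p = 0.0562 for Elovl6 and 0.105 for Scd1) or with replicate number as a block (0.108 and 0.152), and Elovl6 missed the threshold with median scaling (0.0578).

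**Figure D4:**
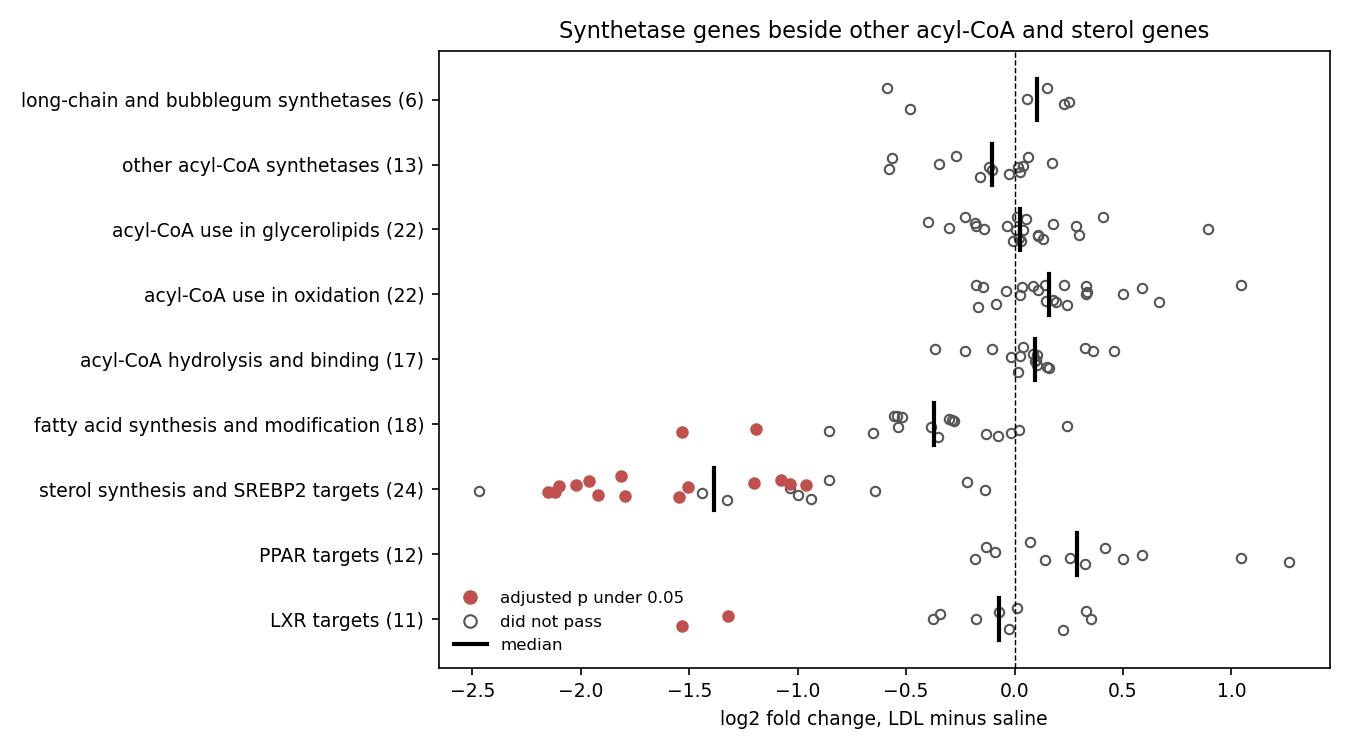
Log2 fold change, LDL minus saline, of each tested gene (points, filled where the adjusted p was under 0.05), by gene list with the number tested, and list medians (black bars). The 6 synthetase genes lie between -0.59 and 0.25 with 0 filled points, while sterol genes have a median of -1.38 and 14 filled points.

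The PPAR list held targets, among which Acsl1 is usually counted, and also the receptors Ppara, Ppard and Pparg. Of its 12 tested genes 0 passed, 9 were positive and 3 negative, and the median was 0.29. The 3 receptors had log2 fold changes of -0.09, 0.07 and -0.13. The fatty acid transporter Cd36 had 1.27 and the lipid droplet coat gene Plin2 0.42 (limma adjusted p = 0.509 and 0.583). The LXR list held targets and also the receptors Nr1h2 and Nr1h3. Of its 11 tested genes 2 fell, Scd1 and the lipogenic factor Srebf1 by 1.32 (limma adjusted p = 0.0314), and the median was -0.07. Srebf1 passed in 0 of the 6 fits with 1 array left out (limma adjusted p = 0.0871 to 0.164). It also missed the threshold with median scaling, the replicate block and the slide row block (limma adjusted p = 0.0768, 0.0926 and 0.105). The sterol exporter Abca1 had 0.33 (95% interval -0.05 to 0.70), Arl4c -0.38 and Smpdl3a 0.23 (limma adjusted p = 0.714, 0.534 and 0.697).

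Because Acsbg1 and Acsl6 are known from particular brain cells, marker genes were set beside them. All 8 precursor markers, Nes and Sox2 among them, and all 9 astrocyte markers were tested. Astrocyte markers had a summed relative signal between 142 and 162 on LDL arrays and between 176 and 203 on saline arrays, with 8 of 9 negative values. Gfap alone was positive and passed at 1.35 (limma adjusted p = 0.0223), but its 2 probes disagreed, and their mean gave 0.75 and did not pass (limma adjusted p = 0.312, with 0.00824 to 0.771 over the alternatives). The astrocyte sum was lower on every LDL array than on any saline array, but Aldoc and Slc1a3, the brightest markers, made up 89.1% to 90.5% of it on LDL arrays and 89.5% to 91.2% on saline arrays. Without these 2, a choice made after seeing the data, the other 7 summed to 13.4 to 17.5 with LDL and 15.5 to 20.2 with saline, and the groups overlapped. The summed signals of precursor markers were 379 to 410 with LDL and 362 to 434 with saline, and those of oligodendrocyte lineage markers, 9 of 9 tested, were 84.2 to 108 and 90.7 to 122. Neuronal markers, 6 of 9 tested, summed to 24.7 to 27.8 with LDL and 25.2 to 33.1 with saline, and Dcx, Neurod1 and Stmn2 were well above background on 0 arrays. Microglia markers, 5 of 8 tested, summed to 5.05 to 5.86 with LDL and 4.19 to 6.40 with saline. Vascular markers, 3 of 8 tested, summed to 13.35 to 14.03 with LDL and 14.12 to 14.75 with saline. The vascular sum, like that of astrocytes, was thus lower on every LDL array than on any saline array, with a narrow gap. In bulk cultures fewer cells of a type and less RNA per cell cannot be told apart. The part of cell types in the values of Acsbg1 and Acsl6 was not tested.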

How the data were processed

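Per the labels' protocols, cyanine-3 cRNA from 100 ng of total RNA was hybridized to 1-colour Agilent arrays. The deposited scanner files give linear intensity values, which Agilent Feature Extraction 10.7.3.1 subtracted for background and detrended within each array, per the file headers. The authors also deposited log2 values, with R 3.4.4 and limma 3.34.9 named in the submitters' processing notes and the way of aligning arrays not given in the sources used here. Their column medians lay between 6.74 and 6.76, and their columns correlated with the scanner values at 0.987 to 0.993. Scale is log2, and centring and method stay unknown.

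Control and outlier-flagged spots were left out, and log2 processed signals minus the array's 75th percentile were averaged per probe. Between 55.9% and 66.8% of probes were well above background (at least 50% of spots) on an array. Tested were 32972 probes well above it on 3 arrays of a group. Symbols came from matching accessions to the RefSeq table of GRCm38.p6, which 28331 probes matched. The file headers name another build for the array design, so probes were given no coordinates, and the promoter windows carry those of GRCm38.p6. The brightest probe stood for a gene. LDL was compared with saline in limma 3.58.1 (R 4.3.3, lmFit and eBayes, two-sided, no covariates), with Benjamini-Hochberg adjustment over 24209 features. Members and lists were chosen with earlier results of these data known. Named are the 6 genes, up to 4 members of smallest p and those called from each list, the 3 genes of highest r with each synthetase gene, and Hmgcs1, Srebf1, Scd1, Cpt1a, Plin2 and Abca1. Some genes of this rule are not reported here. Gfap, Acsbg2, Sox2, Nes and the undetected neuronal markers were named after their values were seen, as were Aldoc and Slc1a3. On data simulated for LDL against saline with 24168 features, 61.6% of changes of size 1 on the log2 scale were recovered, and 82.8% of size 1.5. No smaller size was simulated, so recovery of differences like those of the 6 genes is not known. Each feature had 1 SD for both groups, and more changes were planted than features passed in the data. Recovery in the data may therefore be lower. Deviations of same-numbered LDL and saline arrays correlated at 0.24, -0.08 and 0.21, and those of differently numbered arrays at -0.27 to 0.08. These values do not settle whether arrays of the same number were pairs, and the main fit does not pair them. Alternatives changed the scaling, the background correction (normexp, offset 50, on median spot signals), the background filter, the use of several probes, the variance model, blocks by replicate number or slide row, the arrays used, and the source of the values. Figures used matplotlib 3.10.9.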

Additional observations from a re-analysis of the deposited data

How the results depend on the processing

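The count of synthetase genes called was 0 in each of the 19 settings, the one reported included, while the number of features with an unadjusted p under 0.05 ran from 871 to 3822. Each of the 6 genes kept its direction in every setting except Acsl5, which was -0.016 without saline replicate 1. In the settings of background filter, variance model and block the fold changes were those of the main fit, so the direction could not turn there. With 1 array left out the log2 fold changes ranged from -0.73 to -0.45 for Acsl3, -0.61 to -0.29 for Acsl4, 0.0045 to 0.12 for Acsl1, -0.016 to 0.32 for Acsl5, 0.08 to 0.35 for Acsl6 and 0.10 to 0.40 for Acsbg1. The counts of 4 higher and 28 lower features depended more on the processing. Higher features numbered 8 with median scaling, 9 with normexp and quantile normalization, 8 with the authors' processed values and 14 with trended robust variances. There were 0 higher with slide row as a block. There were 0 higher and 0 lower without the background filter and in slide row 1 only. Slide row as a block gave 14 lower. With 1 array left out between 0 and 6 were higher and between 0 and 24 lower. The replicate block gave 3 higher and 10 lower, and the 14 sterol genes called became 6. The 2 fatty acid genes and the 2 LXR targets called became 0 with the replicate block and with slide row as a block. Whether the numbers pair the arrays is not known. The replicate block leaves the fold changes of the 6 genes as they are, with a limma adjusted p of 0.396 for Acsl3 and for Acsl4. Without LDL replicate 2, LDL replicate 3 or saline replicate 3, 0 features passed, sterol and fatty acid genes included, while 1020, 1396 and 1567 features had an unadjusted p under 0.05. Those fits have fewer arrays. Without saline replicate 2 there were 3, and 2 of them were sterol genes. The cause was not tested in the remaining settings. The dimmer Acsl6 probe, near background, is limited by signal.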
